A study of Mus musculus with 6 samples.

Results

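The genes of DNA replication licensing and of the replication fork were followed in RNA-seq counts of thymocytes, the T cell precursors of the mouse thymus. The set holds 46 genes, taken by symbol from a fixed list of origin licensing factors, helicase subunits, polymerases, clamp loader subunits and fork protection factors. The list was chosen with earlier results of these data known. All 46 were found among the 55536 rows of the count table, and all 46 passed the filter on low counts, with 18690 genes tested in total. The labels give 2 genotypes with 3 mice and 3 libraries each, wildtype (Il3ra+/+) and deficient in the interleukin-3 receptor alpha chain (Il3ra-/-), both in steady state. The sources used here do not give strain, age, sex or how the Il3ra allele was made. The series title places the comparison in a study of this receptor and of regulatory T cells in intestinal inflammation.

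Il3ra itself did not stand lower in the labelled knockout, at 7.95, 8.02 and 7.39 CPM (counts scaled to a common library size) against 7.80, 6.51 and 6.11 CPM in wildtype. The deleted part of the gene is not known here, so these counts do not check the labels, and directions refer to the label alone. Total counts ran from 55747682 to 82684219 per library. The 10 markers of double-positive thymocytes, the most common cell of the thymus, were all detected and summed to 10119 to 11476 CPM in wildtype versus 9105 to 9646 CPM in the labelled knockout. Replicate 1 of each genotype differed from the others in sex-linked transcripts, and counts without both are given beside the results.

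In every dividing cell, replication origins are first licensed. The origin recognition complex (ORC) binds DNA, and CDC6 and CDT1 then load the MCM2-7 helicase, a step that geminin blocks by binding CDT1. The kinase CDC7 with DBF4, together with CDC45, the GINS complex and MCM10, turns the loaded helicase into an active one, and polymerases, the sliding clamp and its loader then copy the DNA behind it. In the thymus, much of the division takes place in immature thymocytes around beta selection and in early double-positive blasts, and most later double-positive cells are small and resting.

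Transcript levels of nearly all of these genes were higher on average in the libraries labelled knockout, and none passed the adjusted test. The median fold over the 46 genes was 1.34 (log2 0.42), against a median log2 fold change of 0.01 over all tested genes. The fitted fold was above 1 for 44 of the 46 genes and below 1 for Orc4 and Orc5, where 51.2% of all tested genes were fitted higher. With edgeR's quasi-likelihood p-values adjusted over all genes (Benjamini-Hochberg), 0 of 46 passed an adjusted p of 0.05 as higher and 0 as lower, where 0.0161% and 0.0749% of all tested genes did. The smallest adjusted p of a member was 0.132, for Tipin and Lig1. Without adjustment, 38 of the 46 had p under 0.05 and were higher, against 8.01% of all tested genes in that direction. In 39 members every labelled knockout library lay above every wildtype library, against 10.9% of all tested genes.

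Other settings of the test gave other counts of calls. DESeq2's Wald test called 24 of the 46 as higher, where it called 2.56% of the genes with an adjusted p. edgeR without the low-count filter called 28 (1.60% of all genes then tested). Without replicate 1 of both genotypes edgeR called 15 as higher and Orc4 as lower, where 2.06% and 1.92% of all genes were called in these directions. DESeq2 and the fit without replicate 1 shared 12 calls, from 9 of the 11 role groups (Orc6, Cdc6, Mcm3, Gins1, Gins2, Pole, Rfc3, Rfc4, Lig1, Rpa2, Tipin and Timeless). The share of all genes called by both was not computed. Both fits use replicates 2 and 3 of each genotype, so their shared calls are not independent support. With 1 library left out at a time, the count of adjusted calls was 0 in each of the 6 fits.

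**Figure D1:**
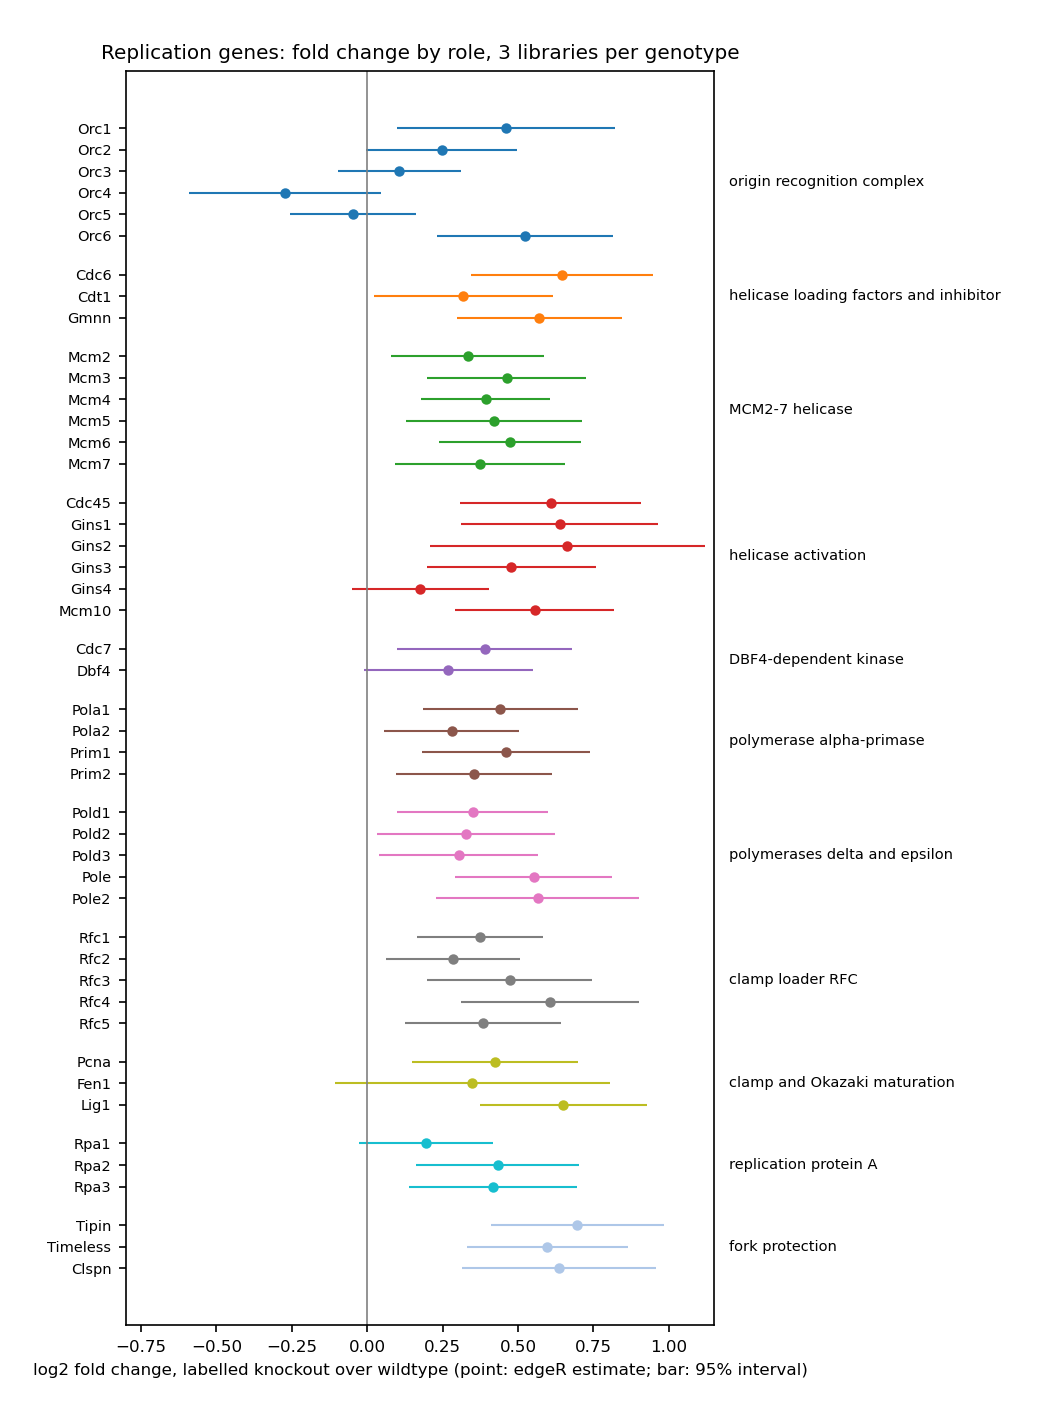
Log2 fold change of each of the 46 genes (horizontal axis, labelled knockout over wildtype; points are edgeR estimates, bars are 95% intervals), grouped by role. The points lie right of 0 for 44 genes, with Orc4 and Orc5 to the left, and the 3 fork protection genes lie between 0.60 and 0.70.

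The 46 genes kept a common order among the libraries. Wildtype replicate 2 held the lowest level of the 6 libraries for 34 genes, and among the labelled knockout libraries replicate 2 was lowest for 41. The highest level lay in labelled knockout replicate 3 for 28 genes and in labelled knockout replicate 1 for 16. As a mean of log2 CPM around each gene's own average, the set stood at -0.13, -0.34 and -0.14 in wildtype replicates 1 to 3 and at 0.25, 0.06 and 0.32 in the labelled knockout. The genes thus share a large part of their spread between mice, and the folds of the 46 genes are not independent of each other. In RNA from whole cell suspensions, more cells in S phase and more RNA per cell cannot be told apart.

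**Figure D2:**
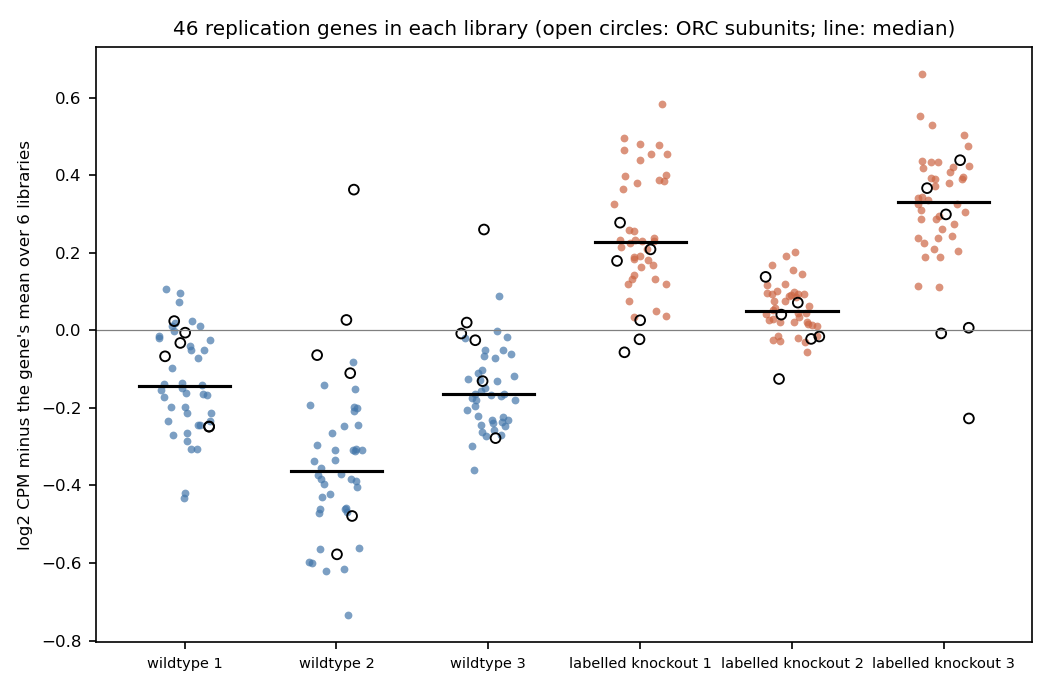
Log2 CPM of each gene minus its mean over the 6 libraries (vertical axis), 1 point per gene and library, with a line at the median. Filled points are the 40 genes outside ORC and open circles are the 6 ORC subunits, among which Orc4 is highest in wildtype replicate 2 while most other genes are lowest there.

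Promoters are shown for 4 of the 11 members with the smallest unadjusted p in their role group, because their windows hold a motif that is common in the set and played no part in choosing its members. Of the 46 members, 37 had a promoter window in the RefSeq table for GRCm38.p6, reaching from 250 bases before to 50 bases after the annotated start. The windows of Lig1, Cdc6, Mcm6 and Pola1 follow, 5′ to 3′ on the strand of the gene, with E2F-type motifs in capitals.
Lig1 (chr7:13278576-13278875, plus strand): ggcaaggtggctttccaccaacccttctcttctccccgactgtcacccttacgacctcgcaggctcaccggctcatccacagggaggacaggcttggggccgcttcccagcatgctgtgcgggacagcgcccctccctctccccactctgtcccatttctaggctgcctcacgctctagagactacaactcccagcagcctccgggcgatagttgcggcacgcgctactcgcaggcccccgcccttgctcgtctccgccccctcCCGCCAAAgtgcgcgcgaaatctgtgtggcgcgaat
Cdc6 (chr11:98907901-98908200, plus strand): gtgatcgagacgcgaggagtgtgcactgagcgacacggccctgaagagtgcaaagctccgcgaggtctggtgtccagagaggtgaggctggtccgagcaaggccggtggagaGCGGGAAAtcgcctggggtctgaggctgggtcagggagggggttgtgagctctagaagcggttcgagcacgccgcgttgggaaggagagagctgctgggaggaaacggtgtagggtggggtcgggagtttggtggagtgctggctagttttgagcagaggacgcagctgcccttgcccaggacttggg
Mcm6 (chr1:128359656-128359955, minus strand): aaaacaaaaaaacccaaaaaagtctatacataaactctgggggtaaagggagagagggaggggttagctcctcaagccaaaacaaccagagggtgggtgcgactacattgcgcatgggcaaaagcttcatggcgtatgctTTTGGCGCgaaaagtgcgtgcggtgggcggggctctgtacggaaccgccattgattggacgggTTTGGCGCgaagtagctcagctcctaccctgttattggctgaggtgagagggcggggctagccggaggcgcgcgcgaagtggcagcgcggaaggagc
Pola1 (chrX:93632106-93632405, minus strand): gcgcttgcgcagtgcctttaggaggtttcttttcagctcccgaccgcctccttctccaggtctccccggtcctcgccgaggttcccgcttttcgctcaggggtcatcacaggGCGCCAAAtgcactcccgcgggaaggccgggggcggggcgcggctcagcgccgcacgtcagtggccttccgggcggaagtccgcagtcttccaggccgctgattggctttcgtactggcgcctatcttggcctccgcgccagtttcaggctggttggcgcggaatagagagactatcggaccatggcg

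E2F factors are the transcription factors best known for driving S phase genes, and 4 spellings of their site were searched on both strands (TTTGGCGC, TTTCCCGC, TTTGGCGG and TTTCCCGG). Some genes have several listed starts, and a gene was counted where any of its windows held a match. At least 1 of the spellings stood in the windows of 18 of the 37 members (48.6%), against 3.79% of the 27025 genes in the table and 6.54% of the 11125 tested genes in it. Mcm6 held TTTGGCGC at -110 and again at -47 from the start, both on the gene's strand, and Pola1 held it on the other strand at -138. Cdc6 held TTTCCCGC on the other strand at -138, and Lig1 held TTTGGCGG on the other strand at 14 bases past the start. CCAAT, the letters bound by NF-Y, stood in 22 of 37 windows (59.5%) against 41.1% of all genes and 42.4% of tested genes. TTTGAA, a core of the CHR element of mitotic genes, stood in 7 (18.9%), between the 20.2% of all genes and the 14.9% of tested genes. In a shorter window, of 150 bases before and 50 after the start, it stood in 6 (16.2%) against 12.8% of all genes and 8.74% of tested genes. The median log2 fold change was 0.43 over the 18 members with an E2F-type motif and 0.42 over the 19 without. Among the 18 were Orc3 and Orc4, whose log2 fold changes were 0.11 and -0.27. A match of letters is a description of the window and was not linked to binding by any file used here.

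Gene positions are on GRCm38. ORC, the complex that marks origins, was the role group with the least difference and the widest internal split. Orc6 (chr8:85299632-85308278), its smallest subunit, had 38.7, 28.4 and 32.6 CPM in wildtype versus 47.9, 41.6 and 53.6 CPM in the labelled knockout, without overlap (fold 1.44, 95% interval 1.17 to 1.76; adjusted p = 0.151, edgeR). Orc1, the subunit whose level is known to change over the cell cycle, had 9.66, 6.49 and 8.86 CPM against 11.2, 10.7 and 12.5 CPM (fold 1.38). The core subunits Orc2 to Orc5 differed less, with fitted folds of 1.19 for Orc2, 1.08 for Orc3, 0.828 for Orc4 and 0.968 for Orc5.

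Orc5 was the steadiest gene of the set, at 24.3, 24.4 and 24.3 CPM in wildtype versus 23.0, 23.6 and 24.0 CPM in the labelled knockout. Its groups did not overlap, with the labelled knockout lower, yet the 95% interval of its fold, 0.838 to 1.12, included 1 (adjusted p = 0.857, edgeR). Orc4 had 47.0, 71.8 and 66.9 CPM in wildtype versus 54.9, 51.2 and 47.7 CPM in the labelled knockout. Wildtype replicate 1 was thus the lowest of all 6 for Orc4 and the other 2 wildtype libraries were the highest. Summed over the 6 subunits, ORC transcripts stood at 195 to 214 CPM in wildtype versus 209 to 227 CPM in the labelled knockout, with overlap. The ratio of Orc6 to Orc2 counts within a library was 1.26 ± 0.287 in wildtype and 1.51 ± 0.116 in the labelled knockout (SD, n = 3 each; two-sided exact permutation p = 0.3). The smallest p that 3 libraries against 3 allow is 0.1, and the pair was chosen after the values were seen.

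Of the loading factors, Cdc6 differed most. Cdc6 (chr11:98907801-98923940), the ATPase that brings the helicase to ORC, had 42.6, 31.8 and 39.2 CPM in wildtype versus 65.6, 49.1 and 63.0 CPM in the labelled knockout (fold 1.56, 95% interval 1.27 to 1.93; adjusted p = 0.139, edgeR). Gmnn, which encodes geminin, the inhibitor of licensing, had 24.8, 21.7 and 27.3 CPM against 35.7, 32.4 and 41.5 CPM (fold 1.49, 1.23 to 1.79; adjusted p = 0.139). In both genes the 3 labelled knockout libraries lay above all wildtype libraries.

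Cdt1, the loading factor that geminin binds, overlapped between genotypes. It had 71.9, 54.3 and 55.7 CPM in wildtype versus 69.6, 68.8 and 88.4 CPM in the labelled knockout (fold 1.25, 95% interval 1.015 to 1.53; adjusted p = 0.309, edgeR). The ratio of Cdt1 to Gmnn counts within a library was 2.90, 2.505 and 2.04 in wildtype and 1.95, 2.12 and 2.13 in the labelled knockout (two-sided exact permutation p = 0.3; Benjamini-Hochberg adjusted p = 0.4 over 6 ratios, which were chosen after the values were seen). The groups overlapped, and the spread was wider in wildtype (SD 0.427) than in the labelled knockout (SD 0.102).

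The MCM2-7 helicase, the ring that unwinds DNA, was higher in the labelled knockout in each subunit. All 6 subunits were without overlap between genotypes, where 10.9% of all tested genes were higher without overlap. Each of the 6 was lowest in wildtype replicate 2 and highest in labelled knockout replicate 3, so they are not independent of each other. Their folds lay between 1.26 (Mcm2) and 1.39 (Mcm6). Mcm6 (chr1:128331590-128359664) had 205, 192 and 222 CPM in wildtype versus 285, 258 and 315 CPM in the labelled knockout (95% interval of the fold 1.18 to 1.63; adjusted p = 0.147, edgeR). Mcm2, with the largest p of the 6, had 228, 182 and 208 CPM against 253, 238 and 289 CPM (interval 1.06 to 1.501; adjusted p = 0.237). Mcm3, Mcm4, Mcm5 and Mcm7 had folds of 1.38, 1.31, 1.34 and 1.30. Summed CPM of the ring was 978 to 1190 in wildtype and 1323 to 1632 in the labelled knockout.

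The 6 MCM transcripts were also close in level. Per kb of exon they ran from 29.6 CPM per kb (Mcm2) to 51.1 CPM per kb (Mcm7) in wildtype, a ratio of 1.72, and the ratio was 1.77 in the labelled knockout. In ORC, by comparison, the highest subunit (Orc6, 13.4 CPM per kb) stood 5.61 times above the lowest (Orc1, 2.40 CPM per kb). The ratio of Mcm6 to Mcm2 counts within a library was 1.01 ± 0.0946 in wildtype and 1.10 ± 0.0229 in the labelled knockout (SD, n = 3 each), without overlap (two-sided exact permutation p = 0.1, the smallest possible; adjusted p = 0.3 over the 6 ratios). The pair holds the smallest and largest p of the ring and was chosen after the values were seen, which favours separation.

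**Figure D3:**
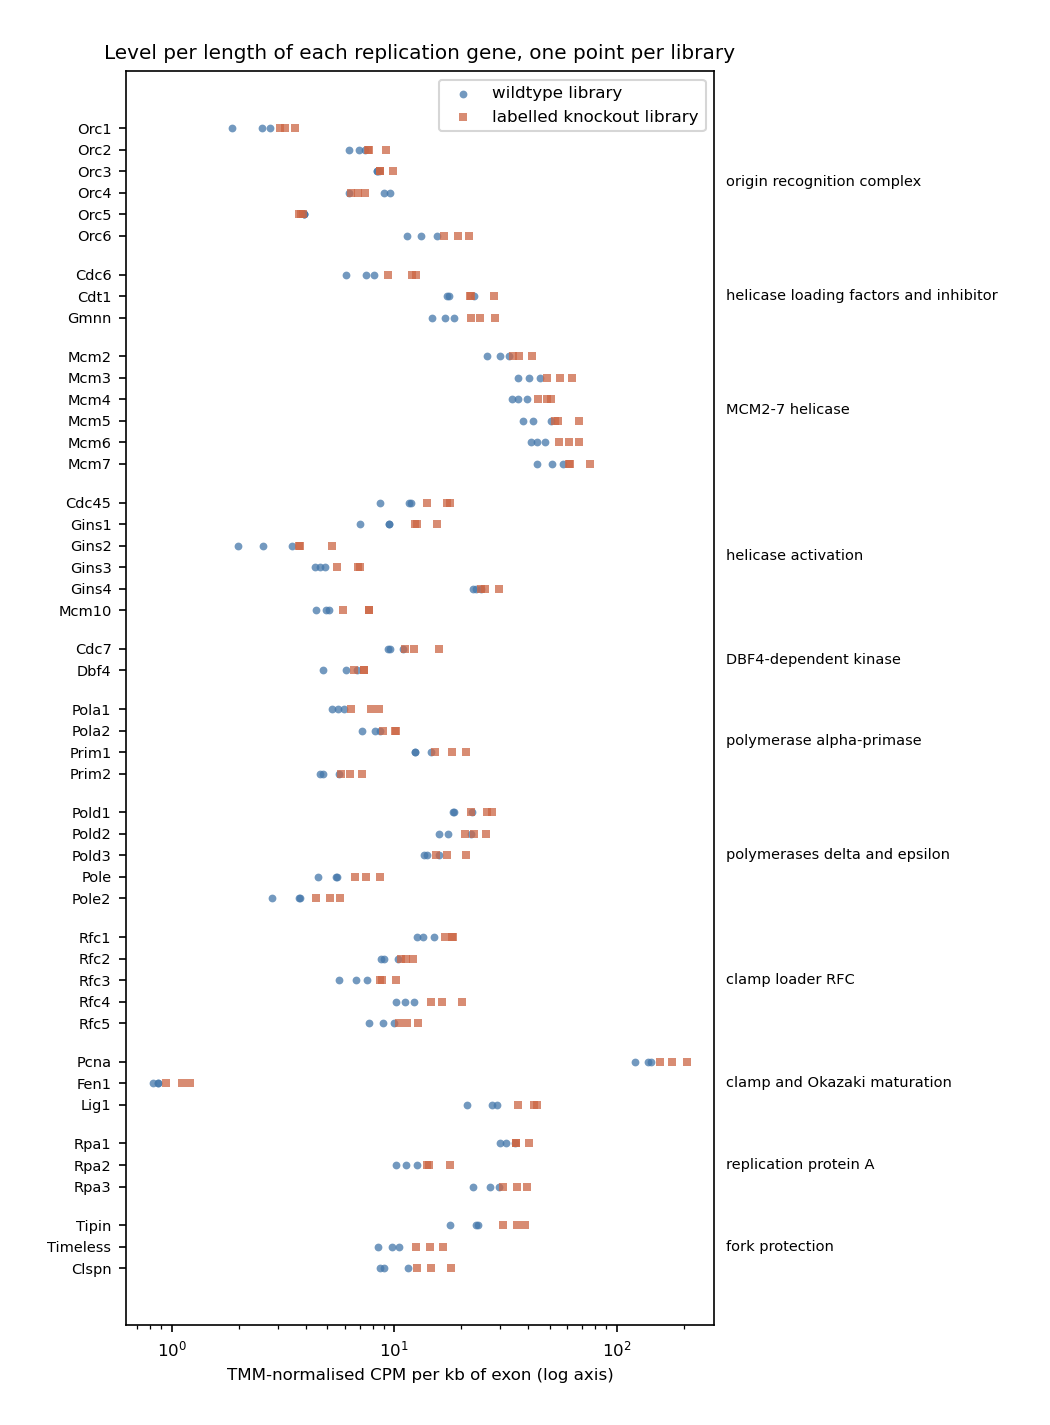
Level of each gene as TMM-normalised CPM per kb of exon (log axis), 1 point per library, circles for wildtype and squares for the labelled knockout. Pcna is the highest at 121 to 208 CPM per kb, the MCM genes form a narrow band, and Fen1 is the lowest at about 1 CPM per kb.

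Factors that turn the loaded ring into a working helicase had a median log2 fold change of 0.58. Mcm10 (chr2:4989714-5012791), a scaffold of helicase activation, had 37.9, 34.4 and 39.2 CPM in wildtype versus 59.1, 45.3 and 59.5 CPM in the labelled knockout (fold 1.47, 95% interval 1.22 to 1.76; adjusted p = 0.139, edgeR). Cdc45, which binds the MCM ring, had 41.6, 30.4 and 40.8 CPM against 60.3, 49.5 and 62.3 CPM (fold 1.52). In both genes the genotypes were apart.

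The 4 GINS subunits, which join CDC45 on the ring, did not differ to the same degree. Gins1, Gins2 and Gins3 had folds of 1.56, 1.58 and 1.39, and Gins4 had 1.13 (31.4, 30.5 and 33.2 CPM in wildtype versus 34.4, 33.2 and 39.8 CPM in the labelled knockout; adjusted p = 0.463, edgeR). Gins4 was also the most abundant per length, at 23.5 CPM per kb in wildtype against 8.67 for Gins1 and 4.65 for Gins3. The ratio of Gins1 to Gins4 counts was 0.459, 0.348 and 0.433 in wildtype and 0.556, 0.565 and 0.591 in the labelled knockout, without overlap (two-sided exact permutation p = 0.1, adjusted p = 0.3 over the 6 ratios). This pair too was chosen after the values were seen, which favours separation. Gins2 shares 67.3% of its exon length with Gse1, a gene on the opposite strand with 79469 counts over the 6 libraries against 5725 for Gins2, so its level is uncertain.

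CDC7 with its activator DBF4 phosphorylates MCM and fires the origin. Cdc7 (chr5:106964322-106984432) had 39.5, 40.1 and 45.98 CPM in wildtype versus 66.3, 46.7 and 51.5 CPM in the labelled knockout (fold 1.31, 95% interval 1.07 to 1.60; adjusted p = 0.229, edgeR). Dbf4 overlapped, at 41.6, 53.1 and 59.7 CPM against 64.1, 57.9 and 64.1 CPM (fold 1.21, 0.993 to 1.46; adjusted p = 0.364). For both genes wildtype replicate 1, not replicate 2, was the lowest library, and for Cdc7 labelled knockout replicate 1 stood clear above the other 2.

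DNA polymerase alpha with primase starts each new strand. Its 4 subunits were all higher without overlap, where 10.9% of all tested genes were. Pola1 (chrX:93304767-93632155), the catalytic subunit, encoded on the X chromosome, had 49.3, 46.2 and 52.4 CPM in wildtype versus 75.6, 56.2 and 69.2 CPM in the labelled knockout (fold 1.36, 95% interval 1.14 to 1.62; adjusted p = 0.162, edgeR). The primase subunits Prim1 and Prim2 had folds of 1.38 and 1.28. Pola2, the accessory subunit, had 71.8, 59.5 and 68.0 CPM against 84.5, 74.2 and 83.3 CPM (fold 1.21, 1.04 to 1.42; adjusted p = 0.254).

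The 2 main copying enzymes are polymerase epsilon on the leading strand and polymerase delta on the lagging strand. Their subunits within the set differed in separation. Pole (chr5:110286306-110337474), the catalytic subunit of epsilon, had 60.9, 50.8 and 62.1 CPM in wildtype versus 96.3, 74.8 and 83.6 CPM in the labelled knockout (fold 1.47, 95% interval 1.22 to 1.76; adjusted p = 0.139, edgeR), and Pole2 had a fold of 1.48, both without overlap. The delta subunits Pold1, Pold2 and Pold3 had folds of 1.27, 1.25 and 1.23 and all overlapped. Pold2 had 42.0, 30.2 and 33.1 CPM in wildtype versus 43.1, 39.6 and 49.3 CPM in the labelled knockout (adjusted p = 0.296). The remaining subunits were in a list of further replication genes. Of epsilon, Pole3 had a fold of 1.25 without overlap and Pole4 had 0.991 with overlap. Of delta, Pold4 had a fold of 0.984 with overlap. The split above thus holds for the named subunits and not for each whole enzyme. The difference between the epsilon and delta folds was not tested.

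RFC, the clamp loader, opens the sliding clamp and sets it on DNA. Its 5 subunits were higher without overlap between genotypes, where 10.9% of all tested genes were, with folds from 1.22 (Rfc2) to 1.52 (Rfc4). Rfc4 (chr16:23113943-23127737) had 18.8, 15.7 and 17.2 CPM in wildtype versus 25.3, 22.5 and 31.0 CPM in the labelled knockout (95% interval 1.24 to 1.87; adjusted p = 0.140, edgeR). Rfc2 had 65.6, 56.7 and 54.98 CPM against 71.3, 67.8 and 76.8 CPM (interval 1.04 to 1.42; adjusted p = 0.244). Rfc1, Rfc3 and Rfc5 had folds of 1.30, 1.39 and 1.31. All 5 were within 2.07 times of each other per length in wildtype.

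Pcna, the sliding clamp itself, was the most abundant of the 46 per length, above 97.9% of tested genes in wildtype. It had 333, 291 and 345 CPM in wildtype versus 425, 375 and 499 CPM in the labelled knockout (fold 1.34; adjusted p = 0.185, edgeR). A processed pseudogene on chromosome 19, Pcna-ps2, held 31751 counts over the 6 libraries, 21.02% of the count of Pcna, and reads may have been divided between the copies. Lig1 (chr7:13277283-13311433), the ligase that seals lagging strand fragments, had 124, 91.2 and 118 CPM against 188, 154 and 181 CPM (fold 1.57, 95% interval 1.29 to 1.90; adjusted p = 0.132), with a clear gap between the genotypes.

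Fen1, the nuclease that trims lagging strand fragments before Lig1 acts, was the gene of lowest level, far from its partners. It had 2.11, 2.09 and 1.99 CPM in wildtype versus 2.92, 2.29 and 2.69 CPM in the labelled knockout (fold 1.27, 95% interval 0.928 to 1.75; adjusted p = 0.467, edgeR), from 933 counts in all. Per length this was 0.853 CPM per kb in wildtype against 26.0 for Lig1. In the GENCODE M21 annotation 84.2% of the Fen1 exon length lies under exons of other genes, all on the opposite strand, of which Gm10143, an antisense model with 292 counts, covers 78.8%. Counted over the 0.383 kb free of other exons, Fen1 would stand at 5.40 CPM per kb in wildtype. No source used here says whether counting used strand, and the part of the overlap in this level was not tested. Of the 46 members, 8 have over 10% of their exon length under another gene (Fen1, Gins2, Orc2, Rfc2, Rfc4, Mcm7, Orc1 and Rfc5), and their levels are less certain than those of the rest.

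RPA coats single-stranded DNA, and its subunits Rpa2 and Rpa3 had folds of 1.35 and 1.33. Rpa2 (chr4:132768332-132778752) had 38.1, 30.4 and 33.7 CPM in wildtype versus 42.8, 42.0 and 53.2 CPM in the labelled knockout (95% interval 1.12 to 1.63; adjusted p = 0.176, edgeR). Rpa1, the large subunit, had 196, 168 and 177 CPM against 197, 196 and 225 CPM (fold 1.14, 0.980 to 1.33; adjusted p = 0.407). Its groups were barely apart, with 195.9 CPM in the highest wildtype library and 196.4 CPM in the lowest labelled knockout library.

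The fork protection factors had the largest differences of any role group, with a median log2 fold change of 0.64. Tipin (chr9:64281581-64305424), which with Timeless holds helicase and polymerase together at the fork, had 44.7, 33.3 and 43.5 CPM in wildtype versus 66.7, 57.6 and 72.8 CPM in the labelled knockout (fold 1.62, 95% interval 1.33 to 1.98; adjusted p = 0.132, edgeR). Timeless had 64.1, 51.9 and 60.1 CPM against 101, 76.9 and 88.2 CPM (fold 1.51, 1.26 to 1.82; adjusted p = 0.138). Clspn, which encodes claspin, the adaptor that passes the stalled fork signal to CHK1, had 64.5, 62.3 and 82.8 CPM against 129, 91.0 and 105 CPM (fold 1.55, 1.24 to 1.94; adjusted p = 0.151). All 3 were higher without overlap, where 10.9% of all tested genes were.

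The members differed in which labelled knockout library was highest, and this went in part with exon length. The 17 genes highest in labelled knockout replicate 1, among them Clspn, Timeless, Pole, Cdc7 and Prim1, had a median exon length of 6021 bases. The 29 highest in replicate 3, among them the 6 MCM genes, Gmnn, Gins1, Rpa3 and Pcna, had a median of 3611 bases. Across the 46 genes the log2 difference between the 2 libraries had a Pearson r of 0.44 and a Spearman rho of 0.47 with log2 exon length, and across all 18690 tested genes r was 0.06 and rho 0.14. Over the 46 genes the difference of labelled knockout replicates 1 and 3 was also set against that of wildtype replicates 3 and 1. Here r was 0.56 and rho 0.54, and over all tested genes r was 0.14 and rho 0.25. Genes share their libraries and are not independent, so no test was made. The fold between genotypes had an r of -0.27 with log2 exon length over the same genes.

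**Figure D4:**
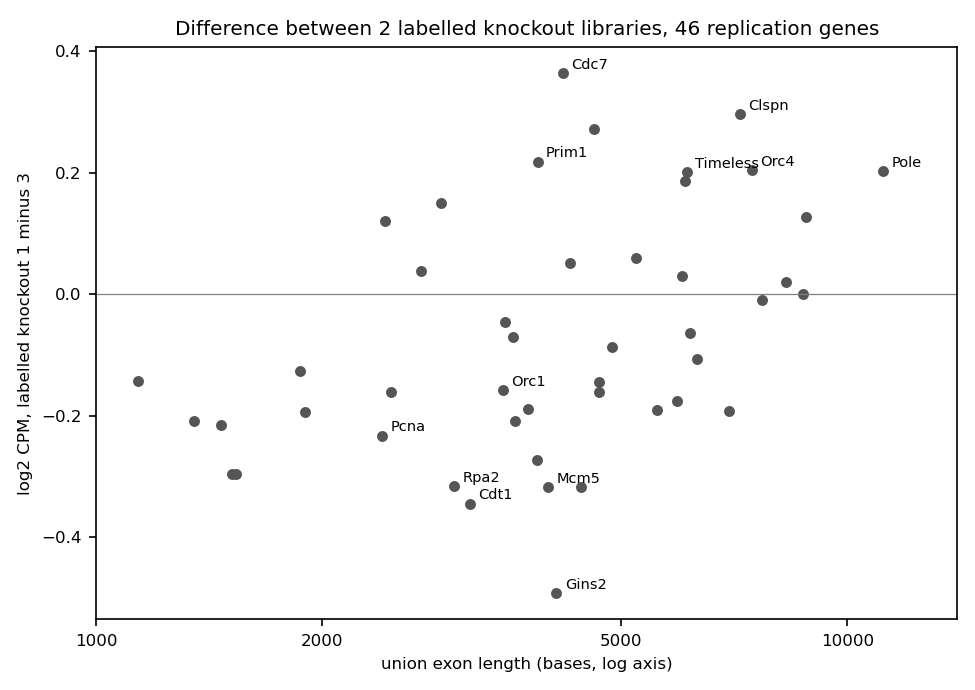
Difference in log2 CPM between labelled knockout replicates 1 and 3 (vertical axis) against union exon length (log axis), 1 point per gene for the 46 genes. Clspn and Pole, with long exon lengths, lie above 0, while others of long exon length, such as Mcm2 and Rfc2, lie below it. The shortest, such as Rpa3 and Gmnn, lie below 0.

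The rest of the replication pathway was followed in a list of 40 further genes: accessory subunits, chromatin assembly, clamp unloading and the ATR checkpoint. It too was chosen with earlier results of these data known. None of the 40 passed edgeR's adjusted threshold in either direction. DESeq2 called 10, all higher, where it called 2.56% of the genes with an adjusted p as higher. Their median log2 fold change was 0.21, with 33 fitted higher and 7 lower. Without adjustment 20 had p under 0.05 as higher and 1 as lower. Of all 18690 tested genes, 1497 (8.01%) were higher at this threshold and 1233 were lower. Chaf1a, a histone chaperone of the fork, had 41.1 ± 3.79 CPM in wildtype versus 60.9 ± 7.76 CPM in the labelled knockout (± SD over 3 libraries each; edgeR adjusted p = 0.139). Dtl, which directs CDT1 to degradation, had 44.9 ± 2.75 and 62.5 ± 5.62 CPM, Dscc1, of an alternative clamp loader, had 4.08 ± 0.936 and 7.52 ± 0.808 CPM, and Pclaf, a PCNA-binding factor, had 156 ± 20.6 and 239 ± 43.8 CPM. Rad9a, of the checkpoint clamp, went the other way, at 64.3 ± 4.27 and 52.5 ± 2.48 CPM without overlap (edgeR adjusted p = 0.210).

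Genes of mitosis, the later phase of the same cycle, were compared in a list of 20. This list was chosen with earlier results of these data known, so its counts are a description and not a test against all genes. All 20 were fitted higher with a median log2 fold change of 0.55. All 20 had an unadjusted p under 0.05, against 38 of 46 licensing and fork genes and 8.01% of all tested genes as higher. Adjusted, 0 passed by edgeR and 18 by DESeq2, which called 2.56% of the genes with an adjusted p as higher. Ccnb1, the mitotic cyclin B1, had 67.6 ± 10.6 and 105 ± 15.1 CPM, and Bub1, of the spindle checkpoint, had 47.2 ± 5.77 and 71.8 ± 13.0 CPM (edgeR adjusted p = 0.139 and 0.151). Summed levels were 1464 to 1938 CPM in wildtype versus 2038 to 2795 CPM in the labelled knockout. Higher levels in the labelled knockout were therefore seen outside replication genes too, in these 20 chosen genes. Without replicate 1 of both genotypes, edgeR called 2 of the 20 mitotic genes and 5 of the 40 other replication genes as higher. In that fit it called 15 of the 46 and 2.06% of all genes as higher.

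**Figure D5:**
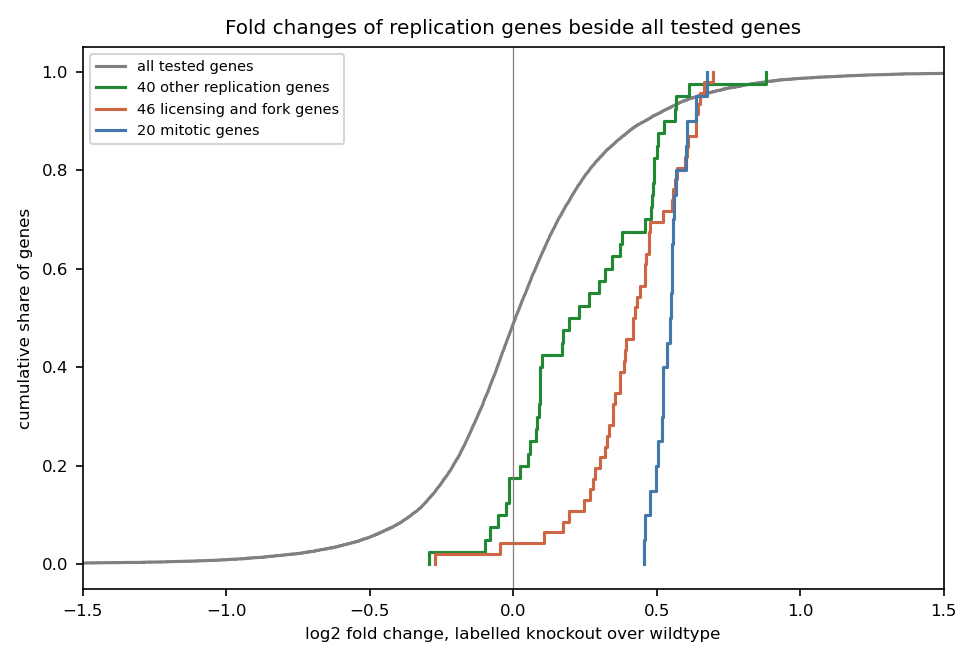
Cumulative share of genes (vertical axis) by log2 fold change (horizontal axis) for all 18690 tested genes, the 46 licensing and fork genes, 40 other replication genes and 20 mitotic genes. The medians are 0.01, 0.42, 0.21 and 0.55.

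Markers of cell types were read beside these levels. Of the 10 double-positive thymocyte markers 9 were fitted lower and 5 were lower without overlap, where 9.38% of all tested genes were. Among the 5 was Cd4 (1284 ± 30.2 and 1044 ± 89.3 CPM), and 0 of the 10 passed edgeR's adjusted test. Early thymocyte markers summed to 965 to 1121 CPM in wildtype versus 1076 to 1111 CPM in the labelled knockout, with 8 of 10 fitted higher and 2 lower. Bcl11b, Notch1 and Gata3 held most of this sum, at means of 566, 263 and 83.9 CPM in wildtype versus 549, 281 and 85.4 CPM. The sum thus says little of the less abundant markers. Within the list Kit had 6.92 ± 0.615 and 10.5 ± 2.91 CPM and Il2ra 57.8 ± 11.1 and 74.8 ± 7.44 CPM, while Dtx1 had 33.1 ± 3.56 and 27.2 ± 2.40 CPM, each with overlap. Single-positive markers summed to 701 to 847 and 651 to 762 CPM, with 4 of 10 fitted higher and 6 lower. Of the 10, 3 (Zbtb7b, Cd5 and Itgb7) were lower without overlap, against 9.38% of all tested genes. None passed edgeR's adjusted test. DESeq2 called Zbtb7b lower (adjusted p = 0.0166), where it called 192 of 15200 genes lower. The part of these cell types in the levels of the replication genes was not tested.

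Markers of other cells varied between libraries of both genotypes. Macrophage markers (9 of 10 tested) summed to 94.9 to 130 CPM in wildtype versus 74.1 to 238 CPM in the labelled knockout, and dendritic cell markers (10 of 10) to 376 to 405 and 170 to 535 CPM. B cell markers (10 of 10) summed to 752 to 1081 and 661 to 1001 CPM, epithelial markers (9 of 10) to 39.8 to 54.5 and 53.2 to 56.6 CPM, and erythroid markers (6 of 8) to 9.17 to 57.8 and 3.55 to 34.3 CPM. Tested markers fitted higher and lower were 9 and 0 for macrophages, 4 and 6 for dendritic cells and 4 and 6 for B cells. For epithelium they were 8 and 1, and for erythroid cells 0 and 6. None passed edgeR's adjusted test in either direction. No marker in these lists was at 0 in all libraries. Macrophage, dendritic and B cell markers were lowest in labelled knockout replicate 1, where the 46 genes stood at 0.25, against 0.06 in replicate 2 and 0.32 in replicate 3. The part of these cells in the result was not tested.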

How the data were processed

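Poly(A)-selected, stranded RNA libraries of thymocytes from 6 mice were handled by the authors with STAR 2.5.4b and featureCounts against GRCm38, as the submitters' processing notes list them. No source used here gives the featureCounts version, annotation release, strand setting or handling of multi-mapping reads. In the deposited table the authors give unnormalised counts for each Ensembl gene in 6 columns, per the file headers. All 55536 identifiers matched GENCODE M21, which gave symbols, positions and union exon lengths.

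Genes were kept by edgeR's filterByExpr at its defaults, scaled by TMM and compared between genotypes with glmQLFit (robust) and glmQLFTest (edgeR 4.0.16, R 4.3.3) with no covariate. P-values were Benjamini-Hochberg adjusted over all 18690 tested genes, with a threshold of 0.05. CPM is the count scaled to the TMM-adjusted library size, and CPM per kb divides it by exon length. Intervals are 95% from the model, and ± is the SD. The common biological coefficient of variation was 18.7%. The script was tested on simulated data.

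Replicates of 1 genotype differed by 41.2 to 96.5 chi-square per degree of freedom, far above sampling noise, and all were kept as separate samples. The members and lists were chosen with earlier results of these data known. Values by library are given for the members of smallest and largest unadjusted p in each role group and for Cdt1 and Gmnn. Other lists show up to 4 genes of smallest p. Outside that rule are Rad9a, named for its direction, Bcl11b, Notch1 and Gata3, named for their level, and the polymerase subunits Pole3, Pole4 and Pold4. These, and other members named with values by library, were chosen after the values were seen. Promoter sequences are from RefSeq (GRCm38.p6). Alternatives were DESeq2 1.42.0, limma-voom (limma 3.58.1), 3 scalings, 2 filters, robust fitting off, a replicate block and left-out libraries.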

Additional observations from a re-analysis of the deposited data

How the results depend on the processing

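The median log2 fold change of the 46 genes stayed above 0 under each alternative tried, from 0.35 without labelled knockout replicate 3 to 0.51 without labelled knockout replicate 2. With 1 library left out, 30 (without wildtype replicate 2) to 38 members had an unadjusted p under 0.05 as higher. In 38 to 43 members the genotypes did not overlap, with the labelled knockout higher. The shares of all genes at these 2 counts were not computed for these fits. Groups of fewer libraries come apart more easily, so the shares given for 6 libraries do not apply. In these 6 fits 0 members passed the adjusted threshold, nor did any of the other replication or mitotic genes. None of the 736 log2 fold changes of single members under an alternative changed sign, and 68 passed the adjusted threshold that had not passed it. Adjusted calls appeared under 3 alternatives. DESeq2 called 24 members, 10 other replication genes and 18 mitotic genes as higher. edgeR without the low-count filter called 28, 13 and 20. Without replicate 1 of both genotypes edgeR called 15, 5 and 2, with 1 member (Orc4) lower. The shares of all genes called as higher under these 3 were 2.56%, 1.60% and 2.06%. The cause of these differences was not tested. The other scalings, a filter of 1 CPM in 3 libraries, robust fitting off and limma-voom each left 0 member calls, with smallest adjusted p-values of 0.1001 to 0.191. The scalings moved the median of all genes by less than 0.01 on the log2 scale.

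Same-numbered libraries did not deviate together over tested genes (correlations of -0.11, 0.03 and -0.12). Replicate 1 of both genotypes did stand apart in sex-linked transcripts. These correlations cannot show how the mice were matched, and whether the replicate number marks a pairing is not known here. With the replicate number as a block, 0 members passed, 37 had an unadjusted p under 0.05 as higher and the median was 0.42. The share of all genes at that unadjusted threshold was not computed for the block fit. In a promoter window of 150 bases before and 50 after the start, 16 of 37 members held an E2F-type motif. Depth limits Fen1 most, with 933 counts in all.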
